A study of Mus musculus with 6 samples.

Results

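Chromatin modifiers and remodelers are the enzymes and complex subunits that write, remove or read chemical marks on histones and DNA, or that use ATP to slide and evict nucleosomes. They were taken here by gene symbol: the Kdm, Kmt2, Kmt5, Kat2 to Kat8, Hdac, Ehmt, Setd, Setdb, Ezh, Smarc, Chd, Arid, Dnmt and Tet genes, leaving out 4 pseudogene rows. This gave 97 of the 20596 genes with a symbol. One of them, Kdm6bos, is an antisense transcript of Kdm6b and no enzyme gene. Of the 97, 96 had enough reads to be tested, and the exception was Dnmt3c, with between 5.69 and 11.8 normalized counts in each library.

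The samples were 6 RNA libraries of the mouse 266.6 line, labelled as acinar tumour cells. The line came from a pancreatic tumour that a viral T antigen drove from an elastase promoter, so a single transformed line stands for acinar cells in both groups. In the CAF_CM group, 3 libraries came from cells exposed to medium conditioned by cancer-associated fibroblasts for up to 40 days. The 3 control libraries came from the same line, labelled only as control, and both groups share a growth protocol in serum-supplemented DMEM. The treatment text naming the conditioned medium stands on all 6 samples, so the groups rest on the treatment label of each sample. The time the controls spent in culture is not given separately, and effects of the medium and of culture time cannot be told apart. The labels do not tie replicates to separate cultures, so p-values here speak only of library-to-library spread, possibly technical.

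Acetylation by lysine acetyltransferases loosens histones from DNA and is undone by deacetylases. Methylation acts by position: on lysine 4 of histone H3 (H3K4) it marks promoters and enhancers in use, on H3K9, H3K27 and H4K20 it marks silent or compacted chromatin, and on H3K36 it marks transcribed gene bodies. In the pancreas such enzymes are known to help hold acinar identity, and several of their genes, among them ARID1A, KMT2D, KMT2C and KDM6A, are recurrently mutated in pancreatic cancer.

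Each library held between 18622370 and 21002226 reads. CAF_CM libraries varied more than control libraries, with a biological coefficient of variation in edgeR of 8.23% against 2.20%. The name is that of the tool, as the labels do not show whether this spread lies between cultures. Acinar markers had rows for 18 of 20 genes, and their summed level was 74565 to 77142 normalized counts in control and 42350 to 48069 in CAF_CM libraries. Most of that sum came from Ctrb1 and Cela1, both lower with CAF_CM. Of the 17 acinar markers tested, 9 were lower, 1 (Nr5a2, log2 change 0.22) was higher and the rest did not pass. Of 12 fibroblast markers 8 had rows, with sums of 3515 to 3710 in control and 3165 to 3649 in CAF_CM libraries, most of it from Pdgfrb, a receptor of platelet-derived growth factor. Col1a1, the main collagen chain of fibroblasts, had 14.4 normalized counts or fewer in every library. Of the 7 fibroblast markers tested, Col1a2, its partner chain, was higher (log2 change 0.48, adjusted p = 0.0299) and Dcn lower (-0.93). Immune markers (4 of 10 with rows) summed to 112 normalized counts or fewer, endothelial markers (3 of 7) to 226 or fewer and islet markers (2 of 6) to 28.9 or fewer in any library. Ductal markers (7 of 8) summed to 1166 to 1206 normalized counts in control and 1604 to 2041 in CAF_CM libraries. The part of these marker shifts in the results below was not tested, and in bulk RNA fewer cells of a type and less RNA per cell cannot be told apart.

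Chromatin genes changed by small amounts and more often upward. In limma with Benjamini-Hochberg adjustment over 16169 genes and a threshold of 0.05, 32 of the 96 were higher and 9 lower in CAF_CM libraries, and 55 did not pass. Over all genes tested, 18.3% were higher and 16.1% lower, against 33.3% and 9.38% of the chromatin genes, and 34.4% changed in either direction. Their median log2 fold change was 0.0907, beside 0.00459 over all genes tested. The groups did not overlap for 44 of the 96 chromatin genes and for 7710 of the 16169 genes tested (47.7%). Lack of overlap was thus no more common among the chromatin genes. No called member reached a 2-fold change, and few genes did over all, 335 of the 16169 tested. The size of the called changes in chromatin genes ran from 0.14 to 0.80 log2 units with a median of 0.32, beside 0.34 for all called genes. All log2 changes were computed after adding 1 to each value, so those of low genes come out too small.

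This split depended on library and on scaling. Without CAF_CM replicate 1, 48 were higher and 9 lower, beside 21.7% and 18.2% of all genes, and without control replicate 1 the higher genes numbered 21, while those of all genes went from 2953 to 1868. Without control replicate 3 there were 6 lower, while those of all genes went from 2602 to 1723. When every library was corrected for the length and GC content of transcripts, 29 were higher and 19 lower, beside 20.0% and 17.8% of all genes, and the median was 0.0226. With library totals as the only scaling, 26 were higher and 11 lower, and Kmt2c, Setd1b, Setd5, Smarca1, Smarce1 and Arid5b lost their calls (adjusted p from 0.0576 to 0.144). That scaling gave 2231 higher and 3179 lower over all genes.

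**Figure D1:**
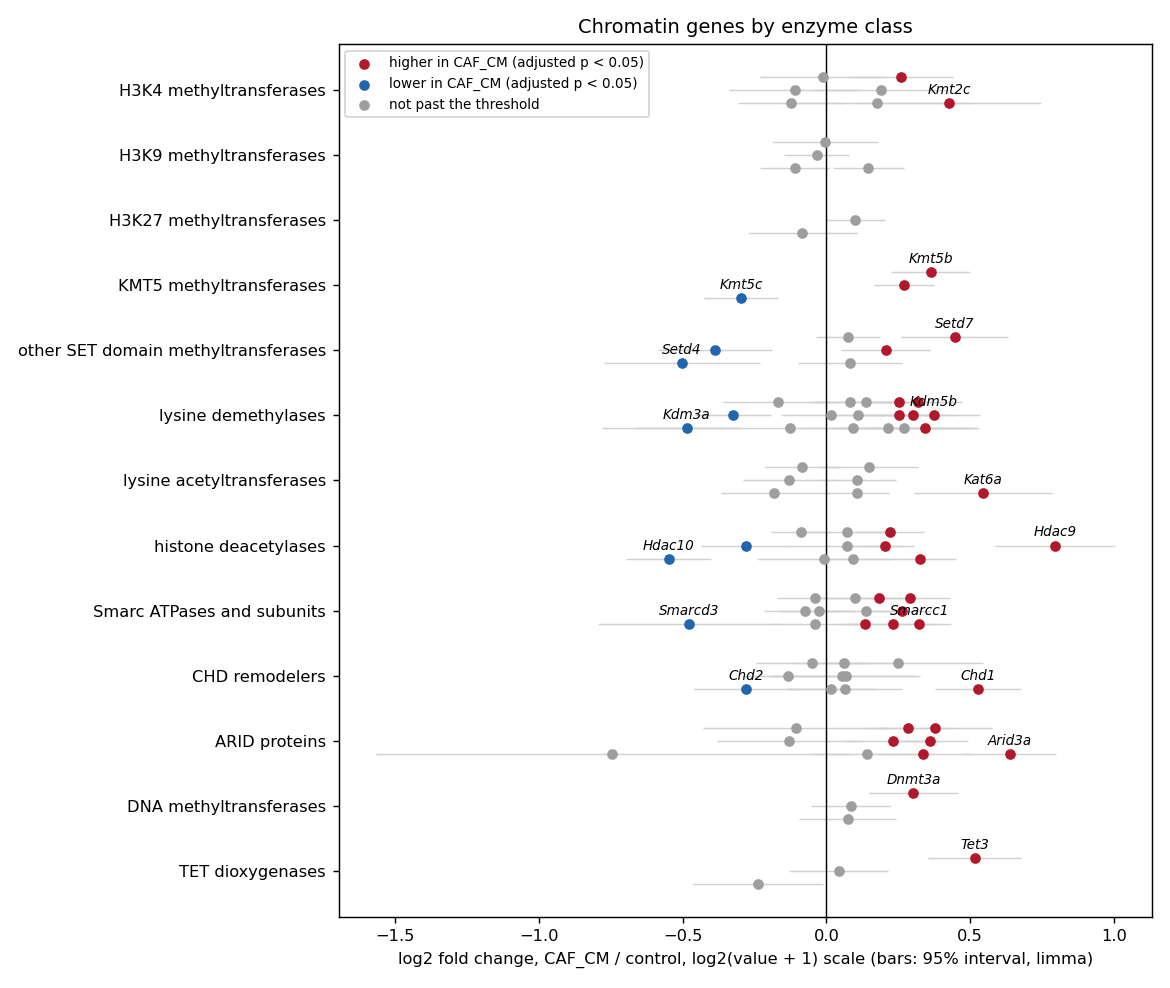
Log2 fold changes (CAF_CM over control, log2(value + 1) scale, horizontal axis) of the 96 tested chromatin genes by enzyme class (vertical axis, the H4K20 enzymes shown as KMT5, with small offsets so that points do not cover each other), with 95% intervals from limma as grey bars. The 32 higher genes are red, the 9 lower genes blue and the 55 others grey, and the ends of the range among called genes are Hdac9 at 0.80 and Hdac10 at -0.55.

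Transcripts of chromatin genes are long, with a median of 5713 bases for the longest GENCODE transcript against 3002 over all genes tested. Difference from control and length went together in CAF_CM replicates 2 and 3 and not in replicate 1. Across the 96 genes the Spearman correlation of transcript length with the log2 difference from the control mean was 0.56 in replicate 2, 0.55 in replicate 3 and 3.93e-04 in replicate 1. These values describe genes that share 3 libraries and are not independent replicates. Over 15764 genes they were 0.29, 0.24 and 0.0104 in the same order. Among the 32 chromatin genes with the longest transcripts (7317 bases or more) 15 were higher and 1 lower, and among the 32 with the shortest (4320 bases or fewer) 6 were higher and 5 lower. The median difference of the long genes was 0.0258 log2 units in CAF_CM replicate 1 against 0.33 in replicate 2 and 0.34 in replicate 3. GC content also moved with the log2 fold change, with a Spearman correlation of -0.41 across the 96 genes and -0.0938 over all. The part of length and GC content in the results below was not tested beyond the corrected values given.

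**Figure D2:**
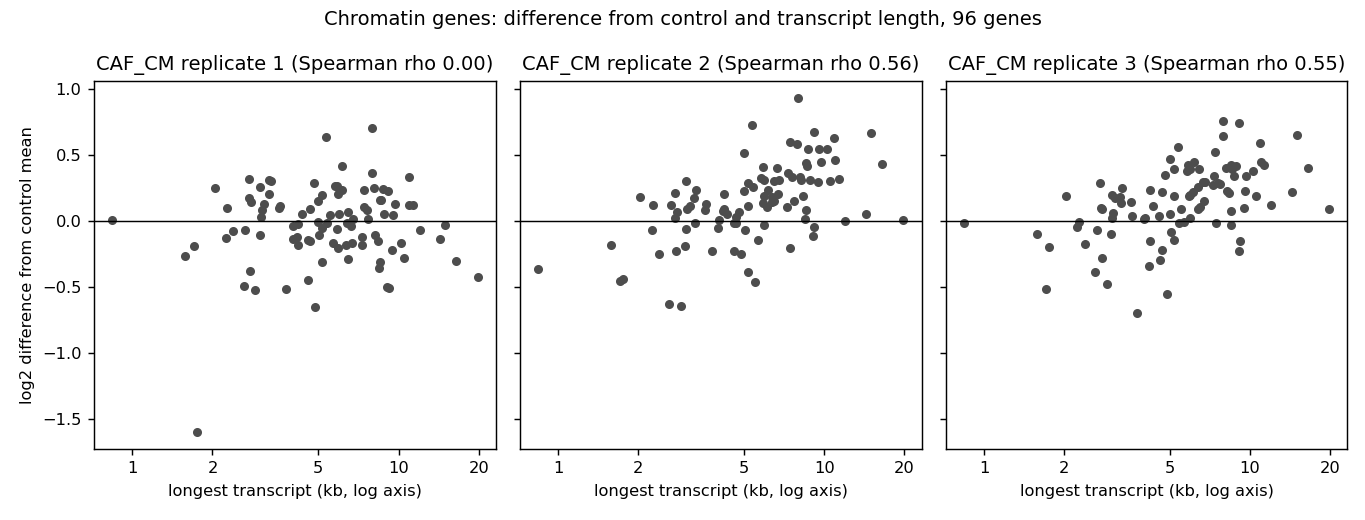
Log2 difference from the control mean (vertical axis) against the length of the longest transcript in kilobases (horizontal log axis) for 96 chromatin genes, with 1 panel per CAF_CM replicate and 1 point per gene. The points climb with length in replicates 2 and 3 (Spearman 0.56 and 0.55) and stay level in replicate 1.

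Genes classed here as H3K4 methyltransferases, most of them catalytic subunits of COMPASS complexes, separated the CAF_CM libraries from one another more than the groups. Kmt2e is in the class by its symbol and not as a COMPASS enzyme. Kmt2a (MLL1), which methylates H3K4 at promoters of developmental genes, had 1928, 1942 and 2052 normalized counts in control replicates 1, 2 and 3, against 1595, 2663 and 2604 in the same order under CAF_CM. Kmt2c, an enhancer methyltransferase, had 1552, 1722 and 1718 in control and 1627, 2631 and 2606 in CAF_CM libraries. CAF_CM replicate 1 lay below every control library for Kmt2a and within the control range for Kmt2c, replicates 2 and 3 lay above every control library for both, and the groups overlapped. Kmt2d, the paralog of Kmt2c, had 3397, 3513 and 3482 normalized counts in control and 2576, 3472 and 3689 in CAF_CM libraries, and overlapped too.

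By limma, Kmt2c rose 1.34-fold (log2 fold change 0.43, SE 0.15, adjusted p = 0.0409) and Setd1b, which deposits H3K4 trimethylation at promoters, rose by 0.26 (SE 0.0825, adjusted p = 0.0312). The other 5 of 7 ranged from -0.12 to 0.19 and did not pass, with Kmt2a at 0.18 (95% interval -0.16 to 0.50, adjusted p = 0.402) and Kmt2d at -0.11 (-0.34 to 0.12, adjusted p = 0.446). Without CAF_CM replicate 1 the class gave 4 rises, with Kmt2a at 0.42 (adjusted p = 9.03e-06) and Kmt2e at 0.35 (adjusted p = 4.96e-05) added, and Kmt2d stood at 0.0472. Neither Kmt2c nor Setd1b passed when any control library or CAF_CM replicate 2 or 3 was left out. Kmt2c then ranged from adjusted p = 0.0838 to 0.170 and Setd1b from 0.0589 to 0.127. With the length and GC correction Setd1b stood at 0.10 (adjusted p = 0.204), and Kmt2b (-0.28, adjusted p = 8.65e-04) and Kmt2d (-0.26, adjusted p = 0.00199) were lower. Kmt2c stood at 0.23 with that correction (adjusted p = 0.0439) and at 0.66 without CAF_CM replicate 1, and did not pass in DESeq2 (adjusted p = 0.129).

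None of the 4 H3K9 and 2 H3K27 methyltransferases passed, beside 34.4% of all genes tested. Ezh2, the catalytic subunit of Polycomb repressive complex 2 that trimethylates H3K27, had 3142, 3320 and 3303 normalized counts in control and 3598, 3416 and 3459 in CAF_CM libraries. Every CAF_CM library was above every control library, yet the difference was small (0.10 on the log2 scale, 95% interval -0.00265 to 0.20, adjusted p = 0.121). Its paralog Ezh1 was at -0.0837 (adjusted p = 0.488). Per kilobase of transcript, the level of Ezh2 in control libraries was 1168 normalized counts against 104 for Ezh1. The H3K9 dimethylases Ehmt1 (GLP) and Ehmt2 (G9a), which work as a pair, had log2 fold changes of 0.15 (adjusted p = 0.0655) and -0.0345 (adjusted p = 0.647). The H3K9 trimethylases Setdb1 and Setdb2 stood at -0.11 (adjusted p = 0.142) and -0.00574 (adjusted p = 0.966). Ehmt1 passed without CAF_CM replicate 1 (0.19, adjusted p = 0.00561), and with the length and GC correction Ezh2 was higher (0.12, adjusted p = 0.0315) and Setdb1 lower (-0.23, adjusted p = 0.00241).

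All 3 H4K20 methyltransferases changed, in opposite directions, beside 34.4% of all genes tested that changed. Kmt5a, which places the first methyl group on H4K20 and is needed in mitosis, had 3566, 3699 and 3599 normalized counts in control and 4516, 4178 and 4406 in CAF_CM libraries. Kmt5b, which adds further methyl groups, had 1320, 1379 and 1413 in control and 1828, 1607 and 1860 in CAF_CM libraries. Kmt5c, its paralog that trimethylates H4K20 in heterochromatin, went the other way, with 1746, 1702 and 1601 in control and 1289, 1438 and 1385 in CAF_CM libraries. None of the 3 overlapped between groups, as was the case for 47.7% of all genes tested. Kmt5a rose 1.21-fold (log2 fold change 0.27, SE 0.0477, adjusted p = 0.00144), Kmt5b rose 1.29-fold (0.36, SE 0.0633, adjusted p = 0.00134) and Kmt5c fell 1.23-fold (-0.30, SE 0.0583, adjusted p = 0.00263). These calls held in each of the 18 alternatives, Kmt5b at 0.22 with the length and GC correction. The gap between the paralogs Kmt5b and Kmt5c was not tested as a difference of its own.

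Of 6 other SET domain genes, 2 rose and 2 fell (33.3% each, beside 18.3% and 16.1% of all genes tested). Setd7, which methylates H3K4 and many other proteins, rose 1.36-fold, from 1583, 1703 and 1801 normalized counts in control to 1987, 2553 and 2423 in CAF_CM libraries (log2 change 0.45, SE 0.0853, adjusted p = 0.00226). Setd6, which methylates the NF-kB subunit RelA, fell 1.31-fold, from 404, 417 and 428 to 364, 303 and 291 (-0.39, SE 0.0911, adjusted p = 0.00716). Setd4 fell 1.42-fold, from 157, 137 and 127 to 98.8, 90.1 and 106 (-0.50, SE 0.12, adjusted p = 0.00929), a call lost without control replicate 1 (adjusted p = 0.0564). Groups did not overlap for these 3 genes, and with the length and GC correction Setd7 stood at 0.28.

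Setd5 had 3876, 4050 and 3922 normalized counts in control and 3995, 4894 and 4833 in CAF_CM libraries, with CAF_CM replicate 1 inside the control range. It rose by 0.21 (SE 0.0711, adjusted p = 0.0430), and the call was lost without any control library or CAF_CM replicate 2 or 3 (adjusted p from 0.0894 to 0.154), with TMM scaling (0.0510) and with the length and GC correction (0.0708, adjusted p = 0.258). Setd2, the H3K36 trimethylase of transcribed genes, had 1931, 1999 and 1970 in control and 1768, 2241 and 2275 in CAF_CM libraries, which straddle the controls (0.0818, 95% interval -0.10 to 0.26, adjusted p = 0.485). Setd2 was higher and past the threshold without CAF_CM replicate 1 (0.20, adjusted p = 0.00210) and stood at -0.11 after the length and GC correction.

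Lysine demethylases were the largest class, with 17 rows. All 3 KDM5 enzymes, which strip methyl groups from H3K4, rose. Kdm5b had 1833, 1947 and 2013 normalized counts in control and 2274, 2813 and 2439 in CAF_CM libraries, with no overlap (1.30-fold, log2 fold change 0.37, SE 0.0732, adjusted p = 0.00261). Kdm5a was at 0.34 (adjusted p = 0.00952) and Kdm5c at 0.25 (adjusted p = 0.0184). Kdm5a lost its call without control replicate 1 (adjusted p = 0.0553), and Kdm5c without control replicate 1, control replicate 3 or CAF_CM replicate 3 (0.0794, 0.0655 and 0.0774). Corrected for length and GC content, all 3 passed at smaller sizes, Kdm5a at 0.13, Kdm5b at 0.19 and Kdm5c at 0.14. Kdm1a (LSD1), an amine oxidase that removes mono- and dimethyl groups from H3K4 with the CoREST proteins, had 2716, 2679 and 2703 in control and 3227, 3328 and 3095 in CAF_CM libraries. It rose 1.19-fold with no overlap (0.25, SE 0.0469, adjusted p = 0.00192), and its paralog Kdm1b was at 0.0906 (adjusted p = 0.435).

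Demethylases of H3K9 gave the 2 falls of the class. Kdm3a, which removes mono- and dimethyl groups from H3K9, had 3548, 3495 and 3626 normalized counts in control and 2262, 2984 and 2426 in CAF_CM libraries. Kdm4b, which acts on H3K9 trimethylation, had 1957, 2005 and 1909 in control and 1434, 1670 and 1589 in CAF_CM libraries. For both genes every CAF_CM library lay under every control library, and CAF_CM replicate 2 was the highest of the 3. Kdm3a fell 1.40-fold (log2 fold change -0.49, SE 0.0835, adjusted p = 0.00124) and Kdm4b fell 1.25-fold (-0.33, SE 0.0607, adjusted p = 0.00197). The paralogs Kdm3b (0.0146, adjusted p = 0.906), Kdm4a (0.11, adjusted p = 0.145) and Kdm4c (0.14, adjusted p = 0.212) did not pass. Kdm4c passed without CAF_CM replicate 1 (0.22, adjusted p = 0.0189) and Kdm4a without CAF_CM replicate 2.

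KDM3A, KDM4B and KDM5B are known from other cells as genes that hypoxia induces through HIF, a factor that reads the core motif ACGTG or GCGTG. Kdm3a and Kdm5b, which moved in opposite directions here, are shown by the 250 bases before their most upstream start in RefSeq (GRCm38.p6), so that their motifs can be seen side by side. The Kdm3a window lies at chr6:71632918-71633167 on the minus strand and the Kdm5b window at chr1:134559928-134560177 on the plus strand, both written 5′ to 3′ with matches to either motif, on either strand, in capitals.
Kdm3a: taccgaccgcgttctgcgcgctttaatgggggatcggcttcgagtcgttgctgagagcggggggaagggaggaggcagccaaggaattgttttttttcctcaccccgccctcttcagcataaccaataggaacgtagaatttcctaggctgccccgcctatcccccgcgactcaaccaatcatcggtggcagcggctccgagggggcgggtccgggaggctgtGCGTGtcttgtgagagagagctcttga
Kdm5b: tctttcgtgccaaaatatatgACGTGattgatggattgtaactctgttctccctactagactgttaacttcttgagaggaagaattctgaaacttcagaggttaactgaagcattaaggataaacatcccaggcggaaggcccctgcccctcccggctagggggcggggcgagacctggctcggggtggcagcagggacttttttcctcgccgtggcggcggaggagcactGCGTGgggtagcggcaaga
Kdm3a held 1 match, GCGTG, beginning 27 bases before the start. Kdm5b held 2 matches, ACGTG beginning 229 bases and GCGTG 19 bases before the start. At least 1 match of either motif was present in 38.6% of the same windows of 27025 genes and in 37 of the 75 chromatin genes that the promoter table holds, Kdm4b not being among them. A match describes letters and not a bound site.

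Demethylases of H3K27 and H3K36 also rose in part. Kdm6a (UTX), which removes methyl groups from H3K27, had 916, 1027 and 915 normalized counts in control and 1097, 1178 and 1249 in CAF_CM libraries and rose 1.23-fold without overlap (log2 fold change 0.30, SE 0.0678, adjusted p = 0.00560). Its paralog Kdm6b was at 0.22 (adjusted p = 0.0860) and passed without CAF_CM replicate 1 (0.34, adjusted p = 4.62e-05). The antisense transcript Kdm6bos held between 10.6 and 20.9 normalized counts, and as no strand setting is given, its reads and those of Kdm6b cannot be told apart. Kdm2a, which binds CpG islands and demethylates H3K36, had 2814, 3005 and 3025 in control and 3278, 3936 and 3859 in CAF_CM libraries (1.25-fold higher, 0.32, SE 0.0683, adjusted p = 0.00420). With the length and GC correction Kdm2a stood at 0.14 (adjusted p = 0.0145) and Kdm6a at 0.17 (adjusted p = 0.0398). The others of the class that did not pass were Kdm2b (0.0824), Kdm7a (0.27, adjusted p = 0.0650) and Kdm8 (-0.17). Of the 17 rows 6 rose and 2 fell (35.3% and 11.8%, beside 18.3% and 16.1% of all genes tested). Without CAF_CM replicate 1 there were 10 rises, with Kdm2b (adjusted p = 0.0276) and Kdm7a (adjusted p = 0.00166) joining Kdm4c and Kdm6b.

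Among lysine acetyltransferases, Kat6a (MOZ), a histone H3 acetyltransferase, alone of 7 passed (14.3%, beside 34.4% of all genes tested). It had 1537, 1726 and 1671 normalized counts in control and 1921, 2620 and 2738 in CAF_CM libraries, all 3 above control, and rose 1.46-fold (log2 fold change 0.55, SE 0.11, adjusted p = 0.00293), or 0.36 with the length and GC correction. Its paralog Kat6b stood at 0.15 (adjusted p = 0.174), Kat7 at 0.11, Kat2a at 0.11, Kat5 at -0.0840, Kat2b at -0.13 and Kat8, the H4K16 acetyltransferase, at -0.18 (adjusted p = 0.114). A second call came without CAF_CM replicate 1 (Kat6b, 0.22, adjusted p = 0.0267) or without CAF_CM replicate 2 (Kat2a). Kat2b passed as lower without CAF_CM replicate 2 and with the length and GC correction (-0.22, adjusted p = 0.0263).

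Histone deacetylases held both the largest rise and the largest fall of the called chromatin genes of the symbol rule. Hdac9, a class IIa deacetylase that binds MEF2 factors, had 143, 144 and 142 normalized counts in control and 233, 273 and 242 in CAF_CM libraries. It rose 1.74-fold, with no overlap (log2 fold change 0.80, SE 0.0960, adjusted p = 1.63e-04). Its length-scaled level was the lowest of the 11 deacetylases in both groups, at 18.0 normalized counts per kilobase in control and 31.4 in CAF_CM libraries. Hdac10, a class IIb enzyme that deacetylates polyamines, had 702, 665 and 693 normalized counts in control and 478, 438 and 493 in CAF_CM libraries. It fell 1.46-fold with no overlap (-0.55, SE 0.0674, adjusted p = 1.78e-04).

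The other class IIa genes moved apart. Hdac4 rose 1.25-fold, from 1021, 1078 and 1072 normalized counts to 1252, 1330 and 1393 (log2 fold change 0.32, SE 0.0574, adjusted p = 0.00143), or 0.18 with the length and GC correction. Hdac7 fell 1.22-fold, from 741, 715 and 747 to 592, 560 and 664 (-0.28, SE 0.0715, adjusted p = 0.0107), and without control replicate 3 its adjusted p was 0.0507. Hdac5 was at 0.0726 (adjusted p = 0.467). Of the class I enzymes, which act in the NuRD, SIN3, CoREST and NCoR corepressor complexes, Hdac1 and Hdac2 rose. Hdac1 had 2911, 2913 and 2975 in control and 3474, 3321 and 3348 in CAF_CM libraries (1.15-fold, 0.20, SE 0.0450, adjusted p = 0.00493). A processed copy of it, Hdac1.ps, may share its reads, so the level of Hdac1 is uncertain. Hdac2 was at 0.22 (adjusted p = 0.00917) and lost its call without control replicate 1 (adjusted p = 0.0604), while Hdac3 was at 0.0907 and Hdac8 at 0.0698. Hdac6, a deacetylase of tubulin, was at -0.0884 (adjusted p = 0.171) and passed as lower with the length and GC correction (-0.15, adjusted p = 0.0141), and Hdac11, the class IV enzyme, at -0.00769 (adjusted p = 0.965). The class gave 4 rises and 2 falls in 11 (36.4% and 18.2%, beside 18.3% and 16.1% of all genes tested).

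**Figure D3:**
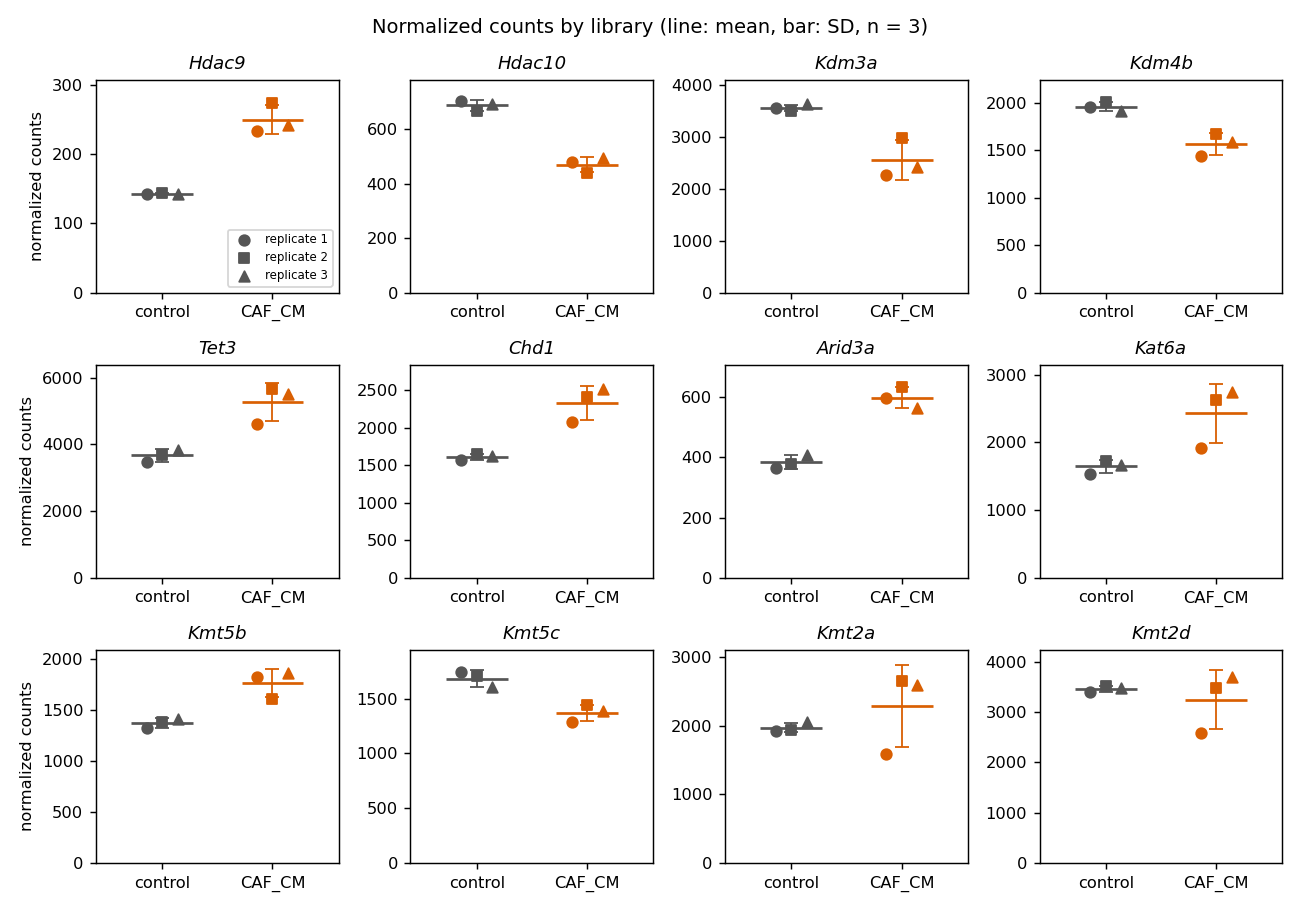
Normalized counts (vertical axis, from 0) of 12 chromatin genes in the 3 control and 3 CAF_CM libraries (horizontal axis), with a marker shape per replicate number, a line at the mean and a bar for the SD. In the panel of Hdac9 the CAF_CM libraries reach 233 to 273 against 142 to 144 in control, and in the panels of Kmt2a and Kmt2d CAF_CM replicate 1 lies under every control library.

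Smarc genes encode the ATPases and subunits of the SWI/SNF (BAF) complexes and their relatives. Of 13, 6 rose and 1 fell (46.2% and 7.69%, beside 18.3% and 16.1% of all genes tested). Smarcc1 (BAF155), a scaffold subunit of BAF, had 4503, 4828 and 4850 normalized counts in control and 5676, 5925 and 6131 in CAF_CM libraries. Smarcd1 (BAF60A), an accessory subunit that links the complex to transcription factors, had 2071, 2150 and 2120 in control and 2606, 2484 and 2514 in CAF_CM libraries. Smarcad1, a remodeler that maintains heterochromatin at replication, had 1347, 1511 and 1439 in control and 1637, 1745 and 1875 in CAF_CM libraries. In each case the groups were apart: Smarcc1 rose 1.25-fold (log2 fold change 0.32, SE 0.0506, adjusted p = 7.04e-04), Smarcd1 1.20-fold (0.26, SE 0.0468, adjusted p = 0.00151) and Smarcad1 1.22-fold (0.29, SE 0.0638, adjusted p = 0.00497). Smarcd3 (BAF60C), the alternative to Smarcd1 in muscle and nerve, had 138, 175 and 176 in control and 113, 138 and 99.7 in CAF_CM libraries. CAF_CM replicate 2 and control replicate 1 were level, so that the groups overlapped, and Smarcd3 fell 1.39-fold (-0.48, SE 0.14, adjusted p = 0.0244).

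The catalytic ATPase of BAF, Smarca4 (BRG1), had 6715, 6746 and 6807 normalized counts in control and 6660, 7643 and 8082 in CAF_CM libraries. CAF_CM replicate 1 lay below control and the others above it (log2 fold change 0.14, 95% interval -0.00334 to 0.28, adjusted p = 0.120), and without that replicate Smarca4 passed (0.22, adjusted p = 4.69e-04). Its alternative Smarca2 (BRM) was at -0.0745 (adjusted p = 0.415). Both ISWI ATPases rose, Smarca5 (SNF2H) by 0.18 (adjusted p = 0.0145) and Smarca1 (SNF2L) by 0.23 (adjusted p = 0.0250), as did Smarce1 (BAF57) by 0.14 (adjusted p = 0.0393). The core subunits Smarcb1 and Smarcc2 were at -0.0411 (adjusted p = 0.684) and -0.0412 (adjusted p = 0.634), Smarcd2 at 0.0978 and Smarcal1 at -0.0277.

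Some of these calls were lost with 1 library left out, while the log2 changes kept their direction. Smarcd3 lost its call without control replicate 2 (adjusted p = 0.101), control replicate 3 (0.0996) or CAF_CM replicate 3 (0.0951). Smarca5 lost it without control replicate 1, 2 or 3 (0.0745, 0.0505 and 0.0572) and with the length and GC correction (0.352). Smarca1 lost it without control replicate 1 (0.108), control replicate 2 (0.0869) or CAF_CM replicate 3 (0.103). Smarce1 lost it without any control library (0.155, 0.134 and 0.0873), without CAF_CM replicate 3 (0.108) and in edgeR with TMM (0.0502) and DESeq2 (0.105). Without control replicate 1 or 2 the class gave 3 rises. The length and GC correction put Smarcc1 at 0.20 and Smarce1 at 0.21, both past the threshold, and added Smarcd2 as higher (0.17, adjusted p = 0.0158) and Smarca2 as lower (-0.18, adjusted p = 0.0154).

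Of 10 CHD remodelers, 1 rose and 1 fell (10% each, less than the 18.3% and 16.1% of all genes tested). Chd1, which binds trimethylated H3K4 and travels with RNA polymerase II, had 1567, 1652 and 1620 normalized counts in control and 2077, 2406 and 2520 in CAF_CM libraries, with no overlap (1.44-fold higher, log2 fold change 0.53, SE 0.0684, adjusted p = 2.37e-04). Its paralog Chd2 had 1923, 2026 and 1982 in control and 1399, 1827 and 1683 in CAF_CM libraries, all lower, and fell 1.22-fold (-0.28, SE 0.0823, adjusted p = 0.0214). Without control replicate 1, 2 or 3 Chd2 no longer passed (adjusted p = 0.0560, 0.0828 and 0.0688), at log2 changes of -0.30, -0.26 and -0.28. Without CAF_CM replicate 1 Chd2 stood at -0.17 (adjusted p = 0.0125). With the length and GC correction it stood at -0.46 and Chd1 at 0.35, both past the threshold. Chd4, the ATPase of NuRD, had the highest length-scaled level in control libraries among the chromatin genes of the symbol rule. It stood at 2131 normalized counts per kilobase, and Hdac2 followed with 1948. The log2 fold change of Chd4 was 0.0610 (adjusted p = 0.607). In CAF_CM replicate 1 Chd4 held 12685 normalized counts, a log2 difference of -0.17 from the control mean, and the 2 other CAF_CM libraries held 16423 and 15837.

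The remaining CHD genes that did not pass ran from -0.13 (Chd1l) to 0.25 (Chd7, mutated in CHARGE syndrome, adjusted p = 0.175). Without CAF_CM replicate 1 the class gave 5 rises, with Chd7 at 0.46 (adjusted p = 1.36e-05), Chd4 at 0.18 (0.00197), Chd3 at 0.19 (0.00944) and Chd6 at 0.24 (0.00155) joining Chd1. Corrected for length and GC content, it gave 1 rise and 3 falls, with Chd8 at -0.22 (0.00681) and Chd9 at -0.20 (0.0383) joining Chd2.

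ARID proteins carry an AT-rich interaction domain that binds DNA. Of 10, 6 (60%) rose and none fell, beside 18.3% and 16.1% of all genes tested. Arid3a (Bright), a transcription factor, had 366, 376 and 409 normalized counts in control and 596, 634 and 565 in CAF_CM libraries and rose 1.56-fold (log2 fold change 0.64, SE 0.0738, adjusted p = 1.30e-04). Arid4b, a subunit of the SIN3 deacetylase complex, had 1018, 1048 and 1092 in control and 1259, 1392 and 1409 in CAF_CM libraries (1.28-fold higher, 0.36, SE 0.0599, adjusted p = 9.92e-04), and its paralog Arid4a was at 0.38 (adjusted p = 0.00821). Arid2, the defining subunit of PBAF, had 3096, 3210 and 3359 in control and 3581, 4367 and 4302 in CAF_CM libraries (1.26-fold higher, 0.34, SE 0.0720, adjusted p = 0.00423), and with the length and GC correction it stood at 0.14 (adjusted p = 0.0189). The groups did not overlap for these genes, and for Arid4b and Arid2 CAF_CM replicate 1 held the lowest CAF_CM value.

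Arid1a and Arid1b are alternative subunits of canonical BAF. Arid1a had 6215, 6650 and 6540 normalized counts in control and 5993, 8018 and 7541 in CAF_CM libraries, and the groups overlapped (log2 fold change 0.14, 95% interval -0.0526 to 0.33, adjusted p = 0.243). Without CAF_CM replicate 1 it was 0.27 higher (adjusted p = 2.23e-04), and with the length and GC correction it stood at 8.46e-05 (adjusted p = 0.999). Arid1b rose by 0.28 (adjusted p = 0.0107), a call lost without control replicate 1 (0.0592) and with the length and GC correction (0.12, adjusted p = 0.0820). Arid5b rose by 0.23 (adjusted p = 0.0324) and lost its call without any control library, without CAF_CM replicate 2 or 3 (adjusted p from 0.0734 to 0.107), with DESeq2 (0.0588) and with the length and GC correction (0.434). Arid3c, with between 5.15 and 21.4 normalized counts, was at -0.75 (95% interval -1.57 to 0.0772, adjusted p = 0.148), and Arid3b and Arid5a were at -0.13 and -0.11.

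DNA methylation is laid down by Dnmt3a and Dnmt3b, copied at replication by Dnmt1 and oxidized by the TET dioxygenases. Dnmt3a had 2116, 2127 and 2113 normalized counts in control and 2313, 2883 and 2677 in CAF_CM libraries and rose 1.23-fold with no overlap (log2 fold change 0.30, SE 0.0707, adjusted p = 0.00695), or 0.15 with the length and GC correction (adjusted p = 0.0146). Dnmt1 had 7178, 7440 and 7553 in control and 7071, 8116 and 8406 in CAF_CM libraries, which overlapped. It stood at 0.0860 (95% interval -0.0522 to 0.22, adjusted p = 0.320), at 0.16 without CAF_CM replicate 1 (adjusted p = 0.00457) and at -0.00592 after the length and GC correction. Dnmt3b was at 0.0735, short of the threshold, and its tandem copy Dnmt3c may share its reads.

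Tet3 alone of the 3 TET genes rose, from 3462, 3694 and 3846 normalized counts in control to 4613, 5649 and 5519 in CAF_CM libraries (1.43-fold, log2 fold change 0.52, SE 0.0739, adjusted p = 4.23e-04), with no overlap. Tet1 had 1684, 1788 and 1820 in control and 1602, 1824 and 2048 in CAF_CM libraries, on both sides of the control values (0.0422, 95% interval -0.13 to 0.21, adjusted p = 0.715). With the length and GC correction Tet1 passed as lower (-0.17, adjusted p = 0.0207). Tet2 stood at -0.24 (adjusted p = 0.0970) and was lower and past the threshold without CAF_CM replicate 2, with the replicate number as a block and after the length and GC correction. Per kilobase, Tet3 had the highest control level of the 3, 336 normalized counts, beside 122.8 for Tet1 and 112 for Tet2.

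Genes of the same complexes outside the symbol rule were read from 12 lists holding 242 symbols, of which 237 had rows and 234 were tested. Here too higher genes outnumbered lower ones, 78 (33.3%) against 20 (8.55%), beside 18.3% and 16.1% of all genes, and the median log2 fold change was 0.13. These genes were measured in the same 6 libraries, so their split is no independent repeat. Their counts with the length and GC correction are not given here, and the part of length and GC content in this split was not tested. Without control replicate 1, 50 were higher and 10 lower, beside 1868 and 1659 of all genes. The lower genes numbered 10 without control replicate 2 and 11 without CAF_CM replicate 3, beside 1715 and 2090 of all genes. The counts by list below stand beside the same shares of all genes, 18.3% higher and 16.1% lower.

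Among partners of the histone methyltransferases, 14 of 36 Polycomb genes rose and 4 fell (38.9% and 11.1%). Pcgf3, a subunit of a variant Polycomb repressive complex 1, rose by 0.55, with 2392 ± 39.1 normalized counts in control libraries and 3503 ± 189 with CAF_CM (mean ± SD, n = 3, as for the genes below), and Rnf2, the ubiquitin ligase of that complex, rose by 0.36. Phf1, an accessory subunit of Polycomb repressive complex 2, fell by 0.73 and the reader gene Cbx7 fell by 0.51. Of 12 COMPASS subunits 6 rose, with Wdr82 (0.34) and Psip1 (0.26) at the lowest adjusted p, and Dpy30 (-0.33) fell. In the list of other histone methyltransferases 6 of 23 rose, with Carm1 at 0.25 and Nsd2 at 0.24, and Prdm9 (-0.51) fell.

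Partners of the remodelers rose in several lists. Of 17 BAF and PBAF subunits 7 (41.2%) rose and none fell. Bcl11a, a zinc finger subunit of BAF, went from 470.04 ± 9.66 to 731 ± 12.8 normalized counts (log2 fold change 0.64, adjusted p = 4.6e-05), and Ss18l1 (CREST), the BAF subunit of postmitotic neurons, rose by 0.48. The NuRD list gave 4 rises in 8, with Gatad2a and Gatad2b at 0.34 each. Of 28 ISWI, INO80 and SRCAP genes 9 rose, with Cecr2 (0.80) and Baz2b (0.44) at the lowest adjusted p, and Chrac1 fell (-0.21).

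Corepressors of deacetylases gave 5 rises (21.7%) and 4 falls (17.4%) in 23, near the 18.3% and 16.1% of all genes tested. Rcor1, the CoREST partner of Kdm1a, rose by 0.36 and Tbl1xr1 by 0.33, while Gps2 (-0.30) and Hmg20b (-0.17) fell. The sirtuins, NAD-dependent deacylases, gave 3 falls in 7 (42.9%), Sirt4 (-0.59), Sirt7 (-0.27) and Sirt6 (-0.20), and no rise. Of 39 acetyltransferase partners 13 rose and 4 fell. Usp22, the deubiquitinase of SAGA, went from 4138 ± 51.2 to 5794 ± 121 normalized counts (0.49), Jade3 rose by 0.45, and Ing4 (-1.35) and Dmap1 (-0.25) fell. The coactivator acetyltransferases Ep300 and Crebbp were at 0.17 (adjusted p = 0.192) and 0.15 (adjusted p = 0.163).

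Readers and DNA methylation partners rose more often than they fell. The heterochromatin protein gene Cbx5 (HP1 alpha) went from 12099 ± 442 to 16824 ± 1032 normalized counts (log2 fold change 0.47), Atad2 rose by 0.46, and the list gave 6 rises and no fall in 15. Of 17 DNA methylation genes 7 rose, with Zbtb33 (Kaiso, 0.46) and Gadd45g (0.57) at the lowest adjusted p, and Mbd4, a glycosylase at methylated CpG sites, fell (-0.18). Among 9 other JmjC and PHF demethylases Phf8 rose (0.24) and Jmjd8 fell (-0.25). In limma, the genes of these 12 lists named as having risen or fallen all passed, Jmjd8 with the least margin (adjusted p = 0.0437).

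**Figure D4:**
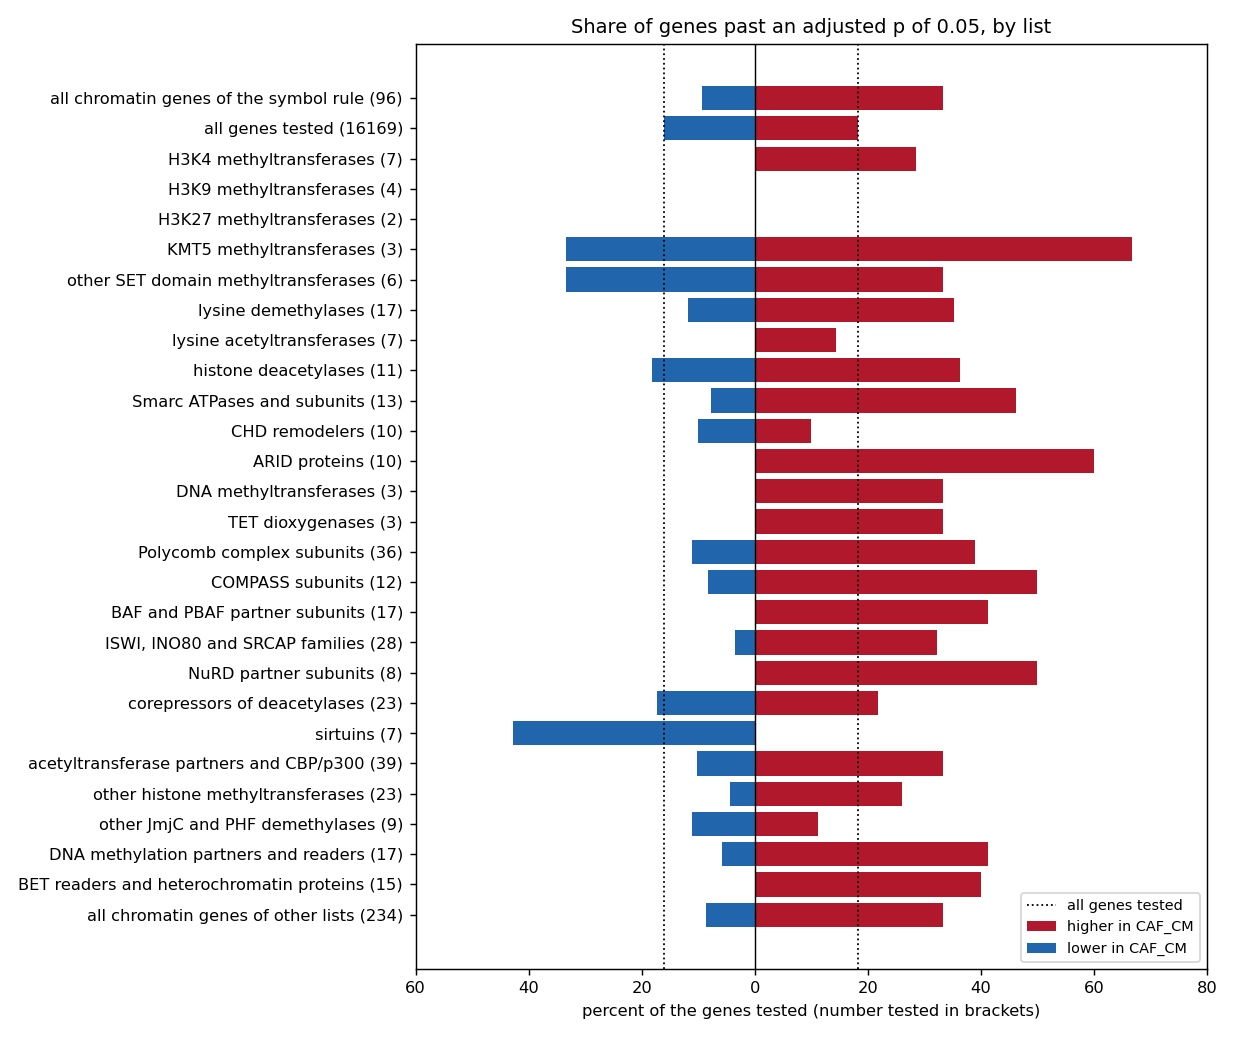
Percent of tested genes past an adjusted p of 0.05 (horizontal axis), higher in CAF_CM to the right in red and lower to the left in blue, for each class of chromatin genes and each of the 12 lists of other chromatin genes (vertical axis, number tested in brackets). Dotted lines mark all genes tested, 18.3% higher and 16.1% lower. Short lists move by many percent with 1 gene.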

How the data were processed

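RNA of 6 libraries was read from the authors' deposited table. Its values are a signal that is never negative: gene read counts that the authors had divided by 1 factor per library. Per the submitters' processing notes, FastQC and DESeq2 were used and the build hg19 is named, although the symbols are of mouse; aligner, counter and mouse build are not given in the sources used here. Dividing by the worth of 1 read gave whole reads (within 0.001) for 100% of values, 18622370 to 21002226 per library, with 168 rows lacking a symbol left out (0.153% to 0.261% of reads).

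limma 3.58.1 (R 4.3.3) was run on log2(value + 1) with a variance trend, over the 16169 genes reaching 10 normalized counts in 3 or more libraries, with Benjamini-Hochberg adjustment. edgeR 4.0.16 and DESeq2 1.42.0 were run on the recovered reads. The longest GENCODE M21 transcript per symbol gave length and GC content (97.5% of genes), and promoter windows from RefSeq (GRCm38.p6).

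Members, classes and lists were chosen with earlier results of these data known. Values in every library are given for up to 3 called members of lowest adjusted p per class and direction and for 12 genes named in advance. Of each other list up to 2 called genes per direction were named by the same rule, and Sirt6, Ep300 and Crebbp were added with their values known. The 18 alternatives covered pseudocount, filter, scaling, tool, group weights, the length and GC correction, the replicate block and each library left out.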

Additional observations from a re-analysis of the deposited data

Results flagged for a closer look

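Of the pseudogene rows outside the chromatin genes described, Hdac1.ps was higher in CAF_CM libraries than in control libraries. Its level was 626 ± 26.1 normalized counts under control and 765 ± 43.0 under CAF_CM (SD, n = 3 per group), with a log2 fold change of 0.29 (SE 0.0652, adjusted p = 0.00578 in limma). Its parent gene Hdac1 had a log2 fold change of 0.20. The source of the reads, parent or copy, was not tested. Smarca5.ps (0.11) and Smarce1.ps1 (0.12) did not pass, and Kat2b.ps was too low to test.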

How the results depend on the processing

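Of the 41 called chromatin genes, 26 kept their call in each of the 18 alternatives and none changed direction in any of them. The counts of 32 higher and 9 lower genes moved by over 1.5 times under 1 setting other than left-out libraries: the length and GC correction gave 19 lower. With 1 library left out at a time, the higher genes ranged from 21 to 48, the lower genes from 6 to 11 (over all genes 1868 to 3509 and 1659 to 2943), and the median log2 fold change from 0.0700 to 0.14; of the genes in the other lists, 50 to 106 were higher and 10 to 27 lower. All 41 called genes passed without CAF_CM replicate 1, where 16 more did. Among the 40 genes given in full, uncalled genes that changed sign were Dnmt1 (-0.00592) and Setd2 (-0.11) with the length and GC correction, Kmt2d without CAF_CM replicate 1 (range over left-out libraries -0.21 to 0.0472), and Tet1 with library totals (-0.00327), with the length and GC correction (-0.17) and without CAF_CM replicate 3 (range over left-out libraries -0.0447 to 0.13). The cause was not tested. With the replicate number as a block, 35 genes were higher and 10 lower. Deviations of same-numbered libraries correlated by 0.0703, 0.0291 and 0.0305, each library closest to its own number. Values this small from 3 libraries per group cannot tell whether the libraries were paired, and the labels name no pairing. Limma fitted 1 variance to both groups although the CAF_CM libraries varied more; with weights per group 34 were higher and 9 lower. The read depth leaves Dnmt3c alone of the 97 untested, and the number of libraries limits the precision of the rest.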
